A study of Rattus norvegicus with 17 samples.

Results

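Chemokines that draw neutrophils and chemokines induced by interferon were followed in colon mucosa of HLA-B27 rats given either much or little dietary calcium. The genes named were Cxcl1, Cxcl2, Cxcl5, Cxcl6, Cxcl9, Cxcl10 and Cxcl11, and a member was any non-control probe whose name on the array, without the endings _predicted and _mapped, equalled one of these 7 names in any letter case. Of the 41012 probes 6 did so, 1 for each name except Cxcl6. The probe named Cxcl5 carries an accession that RefSeq now assigns to Cxcl6, with Cxcl5 as its synonym, so in the rat both names point to 1 gene, written Cxcl5 below. All rats were HLA-B27/β2-microglobulin transgenic females, a genotype that develops colitis, on the inbred Fisher 344 strain, and were 8 to 10 weeks old at the start. They ate a purified Western-type diet with 120 mmol calcium per kg (high calcium, 8 rats) or 30 mmol per kg (low calcium, 9 rats), the added calcium taking the place of glucose, and the question of the series is how this affects the colitis. Both groups carried the transgenes, and no rat without them was analysed here. Each rat's scraped mucosa gave RNA that was labelled with Cy5 and put on an array of its own against a Cy3 pool of all animals, so each value is the log2 ratio of that rat to the pool, and a value of 0 means the level of the pool.

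CXC chemokines are small secreted proteins that guide white blood cells along a gradient. Cxcl1, Cxcl2 and Cxcl5 carry the ELR motif, bind Cxcr2 on neutrophils and are induced by NF-kB after signals such as interleukin-1, tumour necrosis factor and interleukin-17, in the gut mainly in epithelium, stroma and myeloid cells. Cxcl9, Cxcl10 and Cxcl11 lack that motif, are induced by interferons, and bind Cxcr3 on activated T cells and NK cells. Members of both sets are raised in inflamed colon.

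Every member probe was well above background in Cy5 on all 17 arrays and none was saturated, so all 6 passed the filter on dim probes that left 27101 probes. On an array 60.0% to 72.0% of probes were well above background in Cy5, and the number of rats limits the precision. All 10 epithelial markers, among them Epcam, Krt8, Cdh1 and Vil1, were well above background on all 17 arrays. Fibroblast markers were as well (7 of 7), and so were 3 of the 4 smooth muscle markers with a probe, so the scrapings held more than epithelium. Such mixed tissue cannot tell fewer cells of a type from less RNA per cell. Rats 3 (high calcium) and 16 (low calcium), both on slide 1, were also left out together, a pair chosen after the data were seen. Without the pair 328 probes passed an adjusted p of 0.05 in limma, against 0 with all rats. Because of that choice the count cannot show that these rats are aberrant. Member values without them are given below.

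The 3 neutrophil-attracting chemokines had lower means at high than at low calcium, by 1.17- to 1.26-fold, and none of these differences passed the test. Their upstream sequences are shown because the 3 genes moved together across rats. These are the 250 bases before the annotated start, from the RefSeq table of assembly GRCr8, written 5′ to 3′ on the gene's strand, with the bases that match the NF-kB consensus in capitals:
Cxcl1, GRCr8 chr14:17479322-17479571, minus strand: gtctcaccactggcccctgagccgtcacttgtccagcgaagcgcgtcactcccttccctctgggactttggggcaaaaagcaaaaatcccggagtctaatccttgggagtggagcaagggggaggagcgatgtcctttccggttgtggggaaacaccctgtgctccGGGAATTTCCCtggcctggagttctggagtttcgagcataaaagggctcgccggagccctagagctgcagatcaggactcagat
Cxcl2, GRCr8 chr14:17467256-17467505, minus strand: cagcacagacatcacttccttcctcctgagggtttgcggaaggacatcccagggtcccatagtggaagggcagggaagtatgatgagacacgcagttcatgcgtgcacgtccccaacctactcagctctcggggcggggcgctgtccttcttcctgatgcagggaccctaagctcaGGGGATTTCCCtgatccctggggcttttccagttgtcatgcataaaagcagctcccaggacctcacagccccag
Cxcl6, GRCr8 chr14:17596418-17596667, minus strand: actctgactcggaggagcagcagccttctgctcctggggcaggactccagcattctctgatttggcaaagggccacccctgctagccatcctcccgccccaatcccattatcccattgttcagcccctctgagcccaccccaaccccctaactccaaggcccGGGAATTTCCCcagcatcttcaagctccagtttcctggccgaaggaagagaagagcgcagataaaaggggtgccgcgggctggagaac
The match lay from -84 to -74 in Cxcl1, from -74 to -64 in Cxcl2 and from -88 to -78 in Cxcl6, the gene of the Cxcl5 probe, each run holding overlapping matches on both strands. Such a match on either strand was present in 3.54% of the 33469 upstream windows of this length. A match of letters describes the sequence and is no evidence of binding. In the table's gene order Cxcl2 and Cxcl1 are next to each other on chromosome 14, where all 6 genes lie.

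Cxcl2, a chemokine released early in inflammation by macrophages and epithelium, ran in the low calcium rats from -0.65 in rat 5 through a median of 0.21 to 0.58 in rat 6. In the high calcium rats it ran from -1.02 in rat 17 through a median of 0.00026 to 0.093 in rat 9. All 8 high calcium rats lay below the low calcium mean, and 6 of the 9 low calcium rats lay above every high calcium rat. The groups still overlapped, because low calcium rats 5, 11 and 16 were at -0.65, -0.17 and -0.075. The difference, high minus low calcium, was -0.33 ± 0.16 (SE, n = 8 and 9; 95% interval -0.67 to 0.013), with a limma p of 0.059, adjusted p = 0.59 over all probes and an exact two-sided permutation p of 0.11. Without low calcium rat 5 it was -0.43 (limma adjusted p = 0.34), and without high calcium rat 17 it was -0.20 (limma adjusted p = 0.69). The Cy5 signal of this probe ran from 23042 to 73561 over a local background of 40 to 60.0.

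Cxcl1, a close relative that epithelium and stroma secrete, ran from -0.35 in rat 5 through a median of 0.015 to 0.47 in rat 8 at low calcium. At high calcium it ran from -0.91 in rat 17 through a median of -0.11 to 0.40 in rat 9. High calcium rats 14, 17 and 18 lay below every low calcium rat, while rat 9 of the same diet was among the highest of all 17. The difference was -0.25 ± 0.15 (SE, n = 8 and 9; 95% interval -0.56 to 0.052), with a limma p of 0.099, adjusted p = 0.67 and an exact permutation p of 0.16. It was -0.34 without high calcium rat 9 (limma adjusted p = 0.45) and -0.15 without high calcium rat 17 (limma adjusted p = 0.75). Signal in Cy5 ran from 4529 to 12888.

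Cxcl5, also a ligand of Cxcr2, ran from -0.70 in rat 5 through a median of 0.083 to 0.70 in rat 15 at low calcium. The high calcium values ran from -0.74 in rat 17 through a median of -0.12 to 0.37 in rat 3. The groups overlapped over most of their range, with 5 of 8 high calcium rats below the low calcium mean. The difference was -0.23 ± 0.17 (SE, n = 8 and 9; 95% interval -0.57 to 0.12), with a limma p of 0.19, adjusted p = 0.75 and an exact permutation p of 0.26. It was -0.14 without high calcium rat 17 and -0.32 without low calcium rat 5. The Cy5 signal ran from 243 to 912. With rats 3 and 16 both left out, Cxcl1, Cxcl2 and Cxcl5 differed by -0.33, -0.37 and -0.35, with adjusted p of 0.43, 0.46 and 0.45 in limma.

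The 3 interferon-induced chemokines had nearly the same mean in both diets. Their upstream sequences, shown in the same way because these genes also moved together, have in capitals the bases matching the NF-kB consensus, the core of the interferon-stimulated response element or the gamma-activated sequence TTCNNNGAA:
Cxcl9, GRCr8 chr14:16006916-16007165, plus strand: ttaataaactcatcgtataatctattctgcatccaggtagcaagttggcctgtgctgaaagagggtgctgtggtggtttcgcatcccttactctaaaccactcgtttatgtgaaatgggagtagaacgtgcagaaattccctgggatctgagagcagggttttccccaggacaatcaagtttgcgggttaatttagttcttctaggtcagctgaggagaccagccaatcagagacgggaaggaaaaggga
Cxcl10, GRCr8 chr14:15988816-15989065, plus strand: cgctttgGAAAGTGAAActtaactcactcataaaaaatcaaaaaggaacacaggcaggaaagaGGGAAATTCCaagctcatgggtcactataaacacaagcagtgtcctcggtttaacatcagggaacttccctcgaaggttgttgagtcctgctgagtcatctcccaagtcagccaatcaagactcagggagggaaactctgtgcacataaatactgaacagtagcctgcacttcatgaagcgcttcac
Cxcl11, GRCr8 chr14:15973478-15973727, plus strand: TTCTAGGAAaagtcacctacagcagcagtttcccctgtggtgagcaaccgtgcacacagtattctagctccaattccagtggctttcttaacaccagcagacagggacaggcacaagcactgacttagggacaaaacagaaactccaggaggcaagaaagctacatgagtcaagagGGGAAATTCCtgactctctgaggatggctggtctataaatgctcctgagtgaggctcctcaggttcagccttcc
Cxcl10 held the response element core from -243 to -234 and an NF-kB match from -187 to -178. Cxcl11 held an NF-kB match from -74 to -65 and a gamma-activated sequence from -250 to -242. None of these letters occurred in the window of Cxcl9, which says nothing of factors acting outside them. Over all 33469 windows 3.41% held the response element core and 7.67% the gamma-activated sequence, on either strand. In the gene order of the table Cxcl11, Cxcl10 and Cxcl9 follow each other without another coding gene between them.

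Cxcl9, which macrophages make in response to interferon gamma, ran from -0.33 in rat 16 through a median of -0.099 to 0.21 in rat 8 at low calcium. It ran from -0.60 in rat 18 through a median of 0.080 to 0.24 in rat 9 at high calcium. The difference was -0.0065 ± 0.11 (SE, n = 8 and 9; 95% interval -0.24 to 0.23; limma adjusted p = 0.99, exact permutation p = 0.96). Over 29 other settings, some of which cannot change a difference, it lay between -0.072 and 0.071 and was above 0 in 11.

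Cxcl10, which responds to both interferon and NF-kB signals, ran from -0.26 in rat 15 through a median of 0.17 to 0.41 in rat 11 at low calcium. High calcium rats ran from -0.55 in rat 18 through a median of 0.19 to 0.69 in rat 9. The difference was 0.023 ± 0.13 (SE, n = 8 and 9; 95% interval -0.25 to 0.30; limma adjusted p = 0.98, exact permutation p = 0.88), and it was below 0 in 6 of 29 other settings.

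Cxcl11, the Cxcr3 ligand of highest affinity, ran from -0.12 in rat 16 through a median of 0.13 to 0.32 in rat 8 at low calcium. At high calcium the lowest values were -0.49 in rats 13 and 18, the median was 0.21 and the highest value was 0.57 in rat 9. The difference was -0.0041 ± 0.12 (SE, n = 8 and 9; 95% interval -0.26 to 0.25; limma adjusted p = 0.997, exact permutation p = 0.98). It was above 0 in 7 of 29 other settings. For each gene of this set both extremes of the 17 rats were high calcium rats, rat 18 the lowest and rat 9 the highest.

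**Figure D1:**
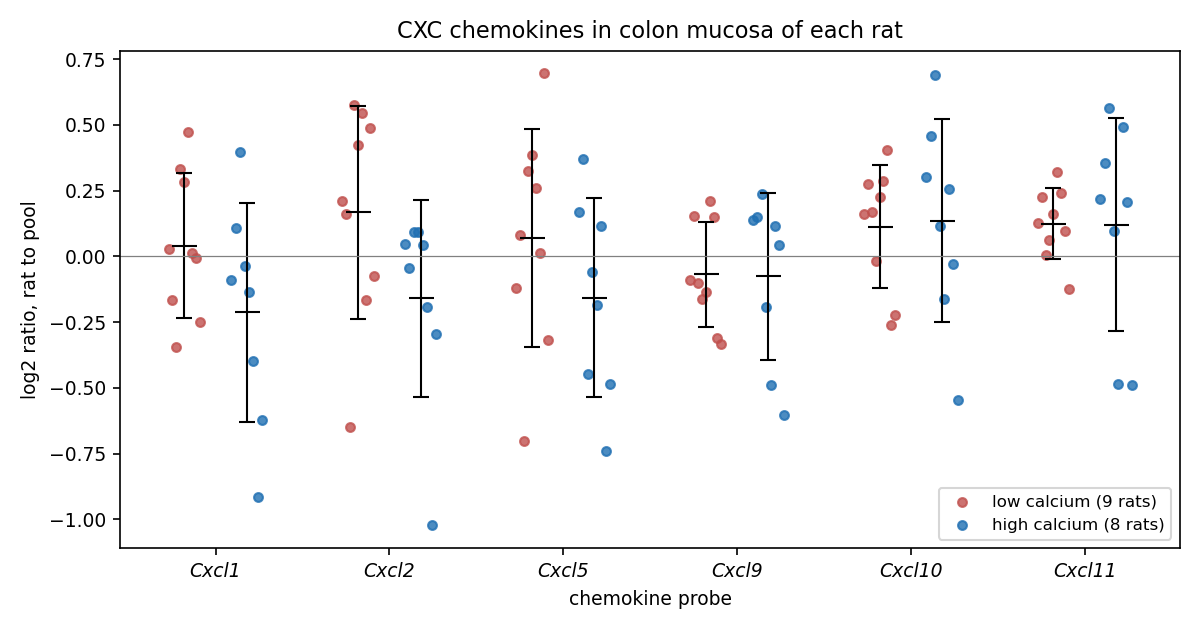
Log2 ratio of each rat to the pool (vertical axis) for the 6 chemokine probes (horizontal axis), with low calcium rats in red and high calcium rats in blue; black lines give mean and SD. The groups overlap for every probe, high calcium rat 17 is lowest for Cxcl1, Cxcl2 and Cxcl5, and for Cxcl11 the high calcium rats spread from -0.49 to 0.57 while the low calcium rats lie between -0.12 and 0.32.

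Spread between rats of one diet was large for all members. The residual SD, within diets, was 0.35 for Cxcl1, 0.39 for Cxcl2 and 0.40 for Cxcl5, above that of 98.9%, 99.3% and 99.4% of the tested probes. It was 0.26 for Cxcl9, 0.31 for Cxcl10 and 0.29 for Cxcl11, above that of 96.6%, 98.3% and 97.8% of them, against a median of 0.12 over all probes. Among the interferon-induced genes the high calcium rats had the larger SD: 0.32 against 0.20 for Cxcl9, 0.38 against 0.23 for Cxcl10 and 0.41 against 0.13 for Cxcl11. Cxcl1 had 0.42 against 0.28. For Cxcl2 and Cxcl5 the low calcium SD was the larger one, 0.41 against 0.38 and 0.42 against 0.38. These SDs were not tested against each other.

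Against the background of the whole array, 0 of the 6 members passed an adjusted p of 0.05 in limma, as did 0% of 27101 probes. At an unadjusted p under 0.05 there were 0 of 6 members by limma and 0 of 6 by the exact permutation test, while 8.79% of all probes passed by limma, 4.84% lower and 3.95% higher at high calcium. Groups without overlap were seen in 0 of 6 members and in 0.0295% of probes. A difference below 0 was found for 5 of the 6 members and for 46% of probes. Differences below -0.1 were found for 3 of the 6 members, all in the neutrophil-attracting set, and for 8.72% of probes; the median over all probes was 0.0069. Whether the 2 sets of chemokines differ in their response to diet was not tested.

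The diet difference within a slide was above 0 on some slides and below 0 on others for every member. On each of slides 1 to 4 there were 2 high and 2 low calcium rats, and on slide 5 low calcium rat 1 alone. For Cxcl1 the difference within slides 1 to 4 was 0.21, 0.19, -0.65 and -0.77. Cxcl2 gave -0.041, 0.13, -0.56 and -0.82, and Cxcl5 gave 0.39, -0.064, -0.36 and -0.97. The interferon-induced genes were higher at high calcium on slides 1 and 2 and lower on slides 3 and 4: Cxcl9 by 0.23, 0.15, -0.23 and -0.20, Cxcl10 by 0.35, 0.33, -0.21 and -0.36, and Cxcl11 by 0.24, 0.30, -0.24 and -0.31. Cxcl1 had the same signs as these 3 genes, while Cxcl2 on slide 1 and Cxcl5 on slide 2 were slightly below 0. A diet by slide interaction over the 16 rats of slides 1 to 4 passed for 0 of 6 members (limma adjusted p from 0.93 to 0.95) and for 0% of probes. At an unadjusted p under 0.05 it was found for 2 of 6 members, Cxcl1 and Cxcl5, and for 4.54% of probes. With slide as a block the differences were -0.25, -0.32 and -0.25 for Cxcl1, Cxcl2 and Cxcl5, with limma adjusted p from 0.69 to 0.78.

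**Figure D2:**
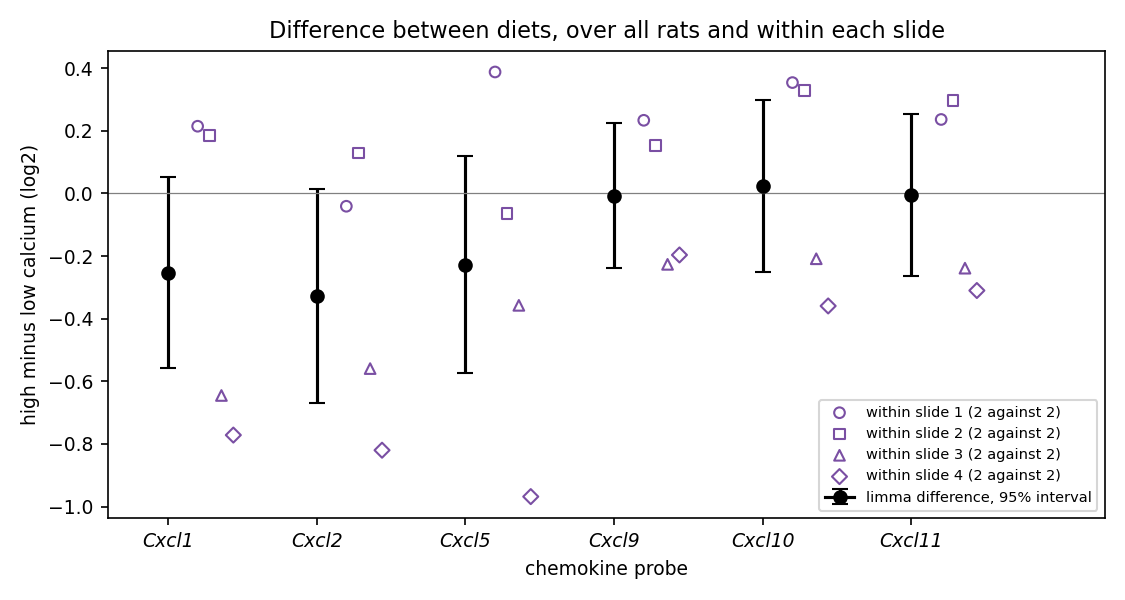
Log2 difference, high minus low calcium (vertical axis), for the 6 chemokine probes, as limma's difference over 17 rats with its 95% interval (black) and as the difference within slides 1 to 4 (open symbols, 2 rats against 2). All 6 intervals include 0, and for each gene slides 3 and 4 lie below slides 1 and 2.

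Members of one set varied together from rat to rat. Over the 17 rats 15 pairs of members and 24 pairs of a member with a marker list were computed, and p-values were adjusted over these 39 relations. Within the neutrophil-attracting set, Cxcl1 and Cxcl2 had r = 0.84 and rho = 0.79 (permutation p = 4e-05 and 0.00028, adjusted p = 0.00052 and 0.0022). Cxcl2 and Cxcl5 had r = 0.79 and rho = 0.68 (permutation p = 9e-05 and 0.0037, adjusted p = 0.00058 and 0.016). Cxcl1 and Cxcl5 had r = 0.60 and rho = 0.57 (permutation p = 0.011 and 0.018, adjusted p = 0.030 and 0.048). Leaving out the 2 rats farthest from the median of the first gene named, r was 0.72, 0.63 and 0.35 for these pairs in the order given. Rats extreme only for the other gene stayed in. For Cxcl1 and Cxcl5 the rats left out were high calcium rats 17 and 18, and over both diets the size of r rests in part on them: without rat 17 alone it was 0.46 (permutation p = 0.073). Within the low calcium rats r of this pair was 0.67 (n = 9) and within the high calcium rats 0.49 (n = 8), and it was 0.76 without high calcium rat 9 and 0.72 with slide means removed. With diet means removed it was 0.55 (permutation adjusted p = 0.051), against 0.81 for Cxcl1 and Cxcl2 and 0.77 for Cxcl2 and Cxcl5.

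In the interferon-induced set, Cxcl9 and Cxcl11 had r = 0.91 and rho = 0.91, and Cxcl9 and Cxcl10 had r = 0.90 and rho = 0.90, each with a permutation p of 1e-05, the smallest that 100000 resamples can give, and adjusted p = 0.00020. For Cxcl10 and Cxcl11 r was 0.83 and rho 0.86 (permutation p = 6e-05 and 2e-05, adjusted p = 0.00058 and 0.00026). Without the 2 rats farthest from the median of the first gene named, r was 0.83, 0.84 and 0.69 in the same order. Within the high calcium rats r was 0.96, 0.90 and 0.89 (n = 8), and within the low calcium rats 0.85, 0.89 and 0.74 (n = 9).

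The 9 pairs between the 2 sets had r from -0.0040 (Cxcl2 and Cxcl9) to 0.51 (Cxcl1 and Cxcl10), with a median of 0.14, and 0 of 9 passed after adjustment, against 6 of 6 pairs within the sets. Cxcl1 and Cxcl10 had rho = 0.49 (permutation p = 0.035 for r and 0.045 for rho, adjusted p = 0.071 and 0.10), and r = 0.34 without the 2 farthest rats; with diet means removed its r was 0.56 (permutation adjusted p = 0.050, just under the threshold). The difference between correlations within and between sets was not tested. With slide means removed, over the 16 rats that shared a slide with another, the 6 pairs within the sets had r from 0.72 to 0.92 and the 9 between them from -0.082 to 0.40. The low values between the sets depend on the normalization: with median centring in place of loess r was 0.77 to 0.98 within and 0.61 to 0.87 between the sets. Under median centring low calcium rat 8 was the highest and low calcium rat 16 the lowest of all rats for every member. For Cxcl2 they were at 3.06 and -0.89, against 0.54 and -0.075 with loess. The part of these 2 arrays in r was not tested. Over both diets together, no pair between the sets was above 0.58 in the other settings run, leaving out single rats included. Within the high calcium rats alone Cxcl1 and Cxcl10 had r = 0.72 (n = 8), and within the low calcium rats 0.23 (n = 9).

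**Figure D3:**
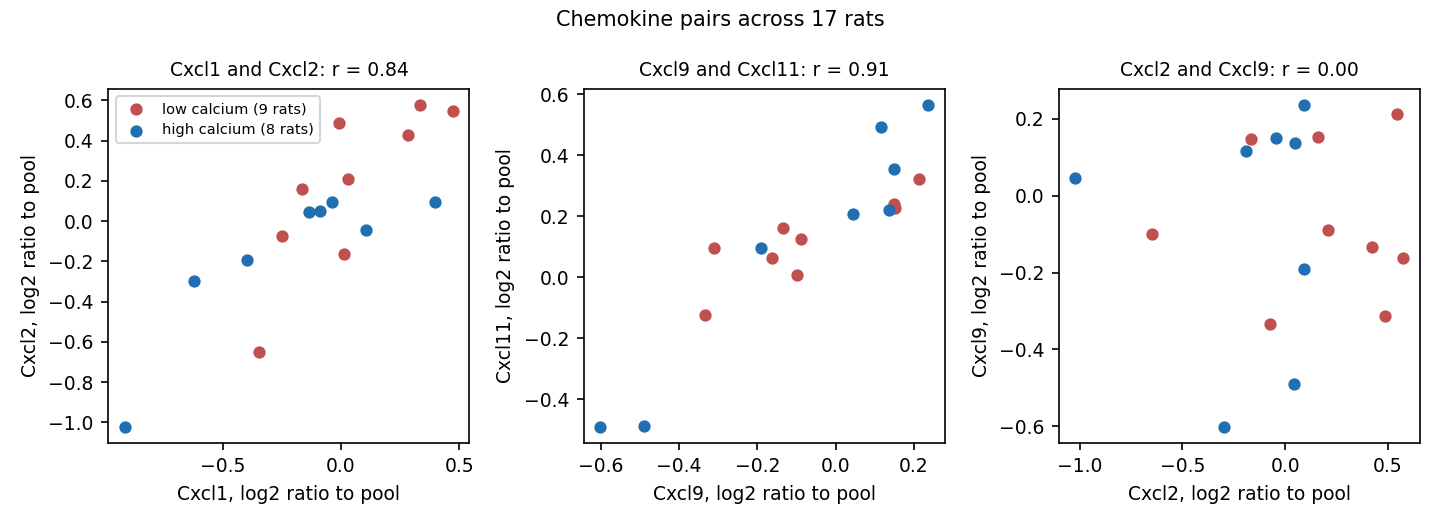
Log2 ratio to the pool of 1 chemokine against another, a point per rat, with low calcium in red and high calcium in blue. Cxcl1 and Cxcl2 rise together (r = 0.84), as do Cxcl9 and Cxcl11 (r = 0.91), while Cxcl2 and Cxcl9 scatter widely (r = -0.0040).

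Single rats differed in how the 2 sets stood. High calcium rat 17, lowest of all for Cxcl1, Cxcl2 and Cxcl5 at -0.91, -1.02 and -0.74, was at 0.045 for Cxcl9, -0.030 for Cxcl10 and 0.21 for Cxcl11. Low calcium rat 15, highest for Cxcl5 at 0.70 and at 0.49 for Cxcl2, was at -0.0066 for Cxcl1, -0.31 for Cxcl9, -0.26 for Cxcl10 and 0.098 for Cxcl11. High calcium rat 18 was low in both sets, at -0.62 for Cxcl1 and -0.60 for Cxcl9. High calcium rat 9 was the highest of its diet for Cxcl1 (0.40) and the highest of all for Cxcl10 (0.69), yet at -0.45 for Cxcl5.

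Means of some cell type marker lists moved with the chemokines across rats. No correlation of the fibroblast, endothelial or smooth muscle means with the members was computed. Whether such lists follow the members as closely was not tested. Cxcl5 followed the mean of the 8 tested neutrophil markers with r = 0.82 and rho = 0.82 (permutation p = 8e-05 and 0.00013, adjusted p = 0.00058 and 0.0013). That relation had r = 0.83 without the 2 farthest rats, 0.88 within the high calcium rats (n = 8) and 0.79 within the low calcium rats (n = 9). The rats left out, high calcium rat 18 and low calcium rat 6, were farthest from the median of the neutrophil mean. Rats extreme for Cxcl5 itself, such as high calcium rat 17, stayed in. For Cxcl2 r with the neutrophil mean was 0.67 and rho 0.67 (permutation p = 0.0032 and 0.0041, adjusted p = 0.015 and 0.016), and 0.62 without the 2 farthest rats. For Cxcl1 they were 0.60 and 0.62 (permutation p = 0.011 and 0.010, adjusted p = 0.030 and 0.032), with r = 0.44 without those rats. With diet means removed r was 0.83, 0.58 and 0.51 for Cxcl5, Cxcl2 and Cxcl1 (permutation adjusted p = 0.00046, 0.043 and 0.076). Cxcl9, Cxcl10 and Cxcl11 had r of 0.28, 0.23 and 0.35 with it, and none passed (adjusted p from 0.27 to 0.48, permutation).

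Among the lists whose correlation with the members was computed, the interferon-induced genes went with T and NK cell markers. By r, though not by rho, they passed with macrophage and monocyte markers too (r = 0.63, 0.57 and 0.68 for Cxcl9, Cxcl10 and Cxcl11). With the mean of 9 T and NK cell markers Cxcl11 had r = 0.68 and rho = 0.77 (permutation p = 0.0018 and 0.00059, adjusted p = 0.0098 and 0.0038). Its r was 0.58 without the 2 farthest rats. Cxcl9 had r = 0.64 and rho = 0.70 (permutation p = 0.0056 and 0.0024, adjusted p = 0.022 and 0.012), and Cxcl10 r = 0.59 and rho = 0.59 (permutation p = 0.012 and 0.015, adjusted p = 0.032 and 0.042). These fell to 0.49 and 0.38 without the 2 farthest rats, low calcium rat 16 and high calcium rat 18. Cxcl1, Cxcl2 and Cxcl5 had r of 0.26, 0.15 and 0.31 with the same mean, and none passed (adjusted p from 0.35 to 0.68, permutation). The differences between these correlations were not tested.

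With the mean of 8 macrophage and monocyte markers r ran from 0.55 for Cxcl2, which did not pass (permutation adjusted p = 0.056), to 0.68 for Cxcl11. The other 5 members passed by r (permutation adjusted p from 0.015 to 0.038). By rho the relations of Cxcl9, Cxcl10 and Cxcl11 did not pass (permutation adjusted p = 0.097, 0.16 and 0.11). With the mean of each diet removed, r with that mean was 0.79, 0.76 and 0.86 for Cxcl9, Cxcl10 and Cxcl11 (adjusted p = 0.0015, 0.0015 and 0.00026, permutation). For Cxcl1, Cxcl2 and Cxcl5 it was then 0.56, 0.41 and 0.53, and none passed (permutation adjusted p = 0.051, 0.18 and 0.071). Over both diets together, without high calcium rat 18 and low calcium rat 8, r was 0.35, 0.31 and 0.49 for Cxcl9, Cxcl10 and Cxcl11. For Cxcl1, Cxcl2 and Cxcl5 it was 0.44, 0.49 and 0.51 without the same rats. Epithelial markers had r between -0.40 and 0.11 with the members, and none passed (adjusted p from 0.21 to 0.98, permutation).

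**Figure D4:**
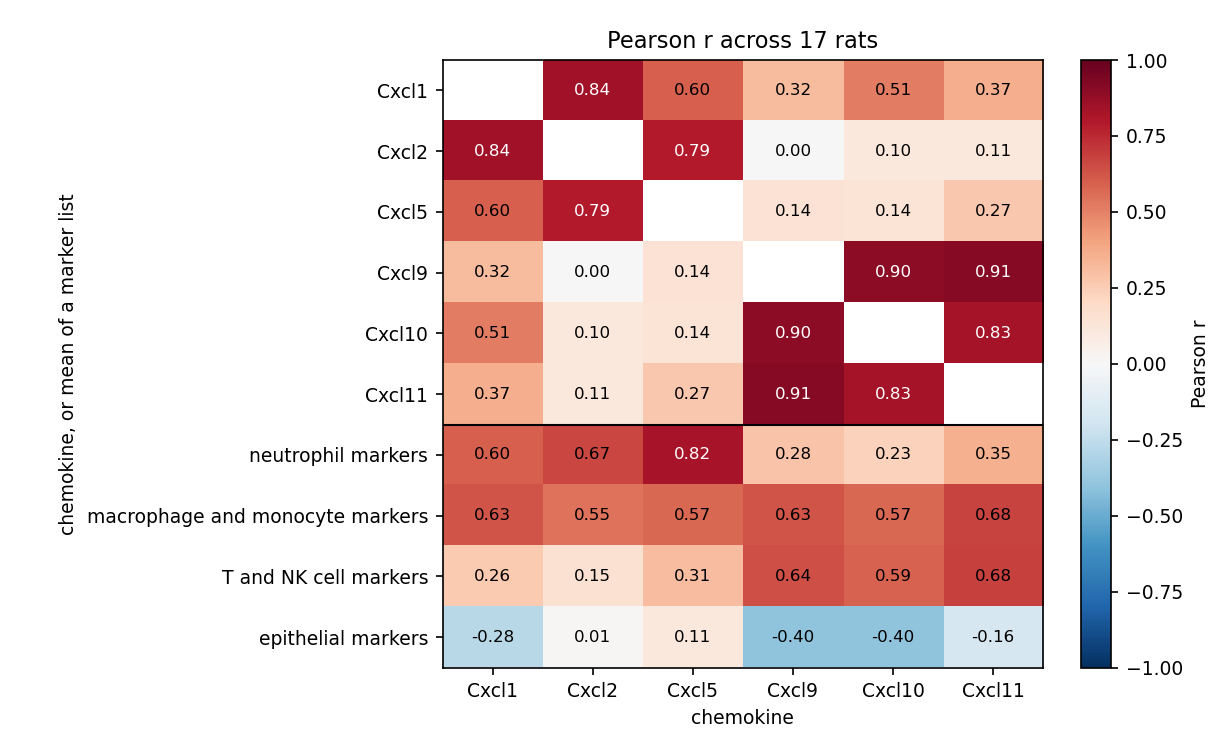
Pearson r across 17 rats of each chemokine (columns) with the other chemokines and with the mean of 4 marker lists (rows), from blue (-1) to red (1). The blocks of Cxcl1, Cxcl2 and Cxcl5 (0.60 to 0.84) and of Cxcl9, Cxcl10 and Cxcl11 (0.83 to 0.91) stand out, and the neutrophil row is highest for Cxcl5 (0.82) while the T and NK cell row is highest for Cxcl11 (0.68).

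The marker lists are given by diet without a test of a list. Beside the counts here and in the lists below, 46% of all tested probes had a difference below 0. At an unadjusted p under 0.05 (limma) 4.84% of them were lower and 3.95% higher at high calcium. Neutrophil markers were lower in 8 of 8 tested genes, with 5 at an unadjusted p under 0.05 (limma), and their mean was -0.18 ± 0.22 at high (SD, n = 8; range -0.51 to 0.19) and 0.098 ± 0.22 at low calcium (SD, n = 9; range -0.24 to 0.42). The granule enzyme Mpo, a defining marker, was not well above background on any array. Macrophage and monocyte markers were lower in 7 of 8 tested genes, 3 of them at an unadjusted p under 0.05, with means from -0.41 to 0.0040 at high and -0.12 to 0.19 at low calcium; Cd163 was not well above background on any array. T and NK cell markers were lower in 6 of 9, with 2 lower and 1 higher at that level, and means from -0.16 to 0.12 at high and -0.23 to 0.17 at low calcium. Epithelial markers were higher in 7 of 10 genes and lower in 3, with a median difference of 0.072 and 0 at that level. Fibroblast markers were lower in 7 of 7 genes, all at that level, with means from -0.85 to 0.24 at high and -0.14 to 0.54 at low calcium. The neutrophil list holds Cxcr2 and Mmp8, which also stand in the receptor and protease lists below. The part of these cells in the chemokine values was not tested.

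The receptors were measured only in part. Cxcr2, the neutrophil receptor of the ELR chemokines, was well above background on 15 of 17 arrays and differed by -0.063 ± 0.057 (SE), and Cxcr3, the receptor of Cxcl9, Cxcl10 and Cxcl11, by 0.037 ± 0.065 (SE). Cxcr1 was not well above background on any array, Ackr2 was on 1, and Ackr1 was not analysed here. Of the 3 receptors tested 0 passed over all genes by limma. The scavenging receptor Ackr3 alone had an unadjusted p under 0.05 (-0.38 ± 0.11 SE, limma adjusted p = 0.24) and is named after its value was seen.

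Other CXC ligands included the nearest relative of Cxcl1 and Cxcl2. Cxcl3, which also binds Cxcr2, differed by -0.32 ± 0.16 (SE, n = 8 and 9; limma adjusted p = 0.59), from 0.11 ± 0.44 at low (SD) to -0.21 ± 0.31 at high calcium, beside -0.33 ± 0.16 (SE) for Cxcl2. Cxcl1, Cxcl2 and Cxcl3 are alike in sequence, and cross-hybridisation between their probes was not tested. Of the 6 other ligands tested 4 were lower and 2 higher; 2, Cxcl14 (-0.37 ± 0.071 SE) and platelet factor Pf4 (-0.26 ± 0.11 SE), were at an unadjusted p under 0.05 and are named after their values were seen. None passed over all genes by limma, with 1 passing without high calcium rat 3 or without low calcium rat 16.

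Genes of the interleukin-1, tumour necrosis factor, interleukin-17 and NF-kB side had a median difference of -0.051 over 15 tested genes, 11 lower and 4 higher, with 0 past the adjusted threshold by limma and 3 at an unadjusted p under 0.05. Those 3 were the cytokine Il1b (-0.25 ± 0.11 SE), its antagonist Il1rn (-0.30 ± 0.11 SE) and the receptor Tnfrsf1b (-0.24 ± 0.10 SE), the last 2 named after their values were seen. With median centring the split of the list was 7 lower and 8 higher, with a median of 0.00051. Tnf differed by -0.057 ± 0.062 (SE) and Il6 by -0.030 ± 0.037 (SE), the latter near background, since it was well above it on 8 arrays. The NF-kB feedback inhibitor Nfkbia differed by -0.033 ± 0.069 (SE) and Nfkbiz, which serves interleukin-17 responses, by 0.0038 ± 0.083 (SE). Il17a was not analysed here. Without rats 3 and 16 together 2 genes of this list passed.

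The interferon side had a median of 0.032 over 16 tested genes, 10 higher and 6 lower. With median centring 14 were higher and 2 lower, with a median of 0.100, and without rats 3 and 16 there were 8 in each direction. Ifng, the inducer itself, differed by -0.15 ± 0.12 (SE), and the transcription factor Irf1 by 0.019 ± 0.090 (SE). A single gene, Irf7 (0.24 ± 0.080 SE, limma adjusted p = 0.35), was at an unadjusted p under 0.05 and is named after its value was seen, and 0 passed over all genes. The list's median stayed between -0.00050 and 0.063 when any 1 rat was left out.

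Among genes that process chemokines, Mmp9, which trims ELR chemokines and is itself carried by neutrophils, differed by -1.01 ± 0.21 (SE, limma adjusted p = 0.14), from 0.29 ± 0.43 at low (SD, n = 9) to -0.72 ± 0.58 at high calcium (SD, n = 8). Dpp4, which cuts the first residues from Cxcl10, differed by 0.079 ± 0.069 (SE). Of 6 tested genes of this list 4 were lower and 2 higher, with 3 lower at an unadjusted p under 0.05, which were Mmp9 and, named after their values were seen, Mmp8 and Mmp12, and 0 past the adjusted threshold by limma; 1 passed without high calcium rat 3 or without low calcium rat 16.

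Genes most like each member over the 17 rats were sought among 11604 named genes by Pearson r of the log2 ratios, as a description without a test. For Cxcl1 they were Snap23 (0.88), Il1b (0.86) and Eva1c (0.85), and for Cxcl2 they were Cxcl3 (0.93), Ripk3 (0.88) and Nfkbia (0.88). Cxcl5 was most like Ndnf (0.94), Manba (0.94) and Serpinb6a (0.90). Cxcl9 was most like Rpe (0.85), Aif1 (0.85) and Ifgga2l1 (0.84). Cxcl10 was most like Aif1 (0.87), Phactr1 (0.85) and the monocyte chemokine Ccl2 (0.83), and Cxcl11 was most like Ifgga2l1 (0.87), Scin (0.84) and Ly49s7 (0.84). With so many candidates and 17 rats, high values of r arise for some genes in any case.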

How the data were processed

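The deposited scanner files give the intensity of each spot in both colours. Per the file headers they come from Agilent's Feature Extraction, version 9.5.1.1 (9.5 in the submitters' processing notes). The deposited series matrix holds log2 values with equal array medians (8.76); how the authors made them is not stated in the labels, and their offset is unknown. After centring they had r = 0.982 with log2 Cy5/Cy3 without background subtraction, over spots, which are no replicates, and served as an alternative; 0 of its columns were left unused.

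Intensities were corrected with normexp (offset 50) and each array was normalised by loess in limma 3.58.1 under R 4.3.3, with control and flagged spots at weight 0. Flagged spots were set to missing, and spots of a probe were averaged, giving 41012 probes. Testing required a Cy5 signal well above background on 8 or more arrays. Diets were compared two-sided with lmFit and eBayes and no covariate, with Benjamini-Hochberg adjustment over 27101 probes and a threshold of 0.05. Groups came from the sample titles, and rats were taken as separate animals. Every rat was in Cy5, so the dye is the same for both diets.

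Correlations were tested with 100000 permutations. For r without the 2 farthest rats, distance was taken only from the median of the first gene named or of the marker mean. Exact permutation tests used all 24310 assignments of 8 of 17 rats. Listed genes were matched through GRCr8 RefSeq names (accession, symbol or synonym) by their brightest probe. On simulated arrays for this comparison (27101 probes) 91.0% of 67 probes changed by 0.5 were called, and 100% of those changed by 1 or 2; members vary more between rats than most probes, so these shares do not hold for them. All members are named, with fixed genes of the pathway lists, of which 1 is not reported here, and the 3 genes most like each member. Members and lists were chosen with earlier results of these data known, and the relations to marker lists and the diet by slide test (limma F-test, two-way fit over slides 1 to 4) were added after the data were seen.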

Additional observations from a re-analysis of the deposited data

Results flagged for a closer look

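Cxcl2 in high calcium rat 17, at -1.02, lay far below the other 7 rats of its diet, the nearest of which was at -0.30. The gap was 0.652 of the group's range, against Dixon's critical value of 0.526 for 8 samples. Both diets were searched for all 6 members, 12 groups in all, and chance alone marks about 5% of groups. The same rat was lowest for Cxcl1 and Cxcl5, and without it Cxcl2 differed by -0.20 between diets.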

How the results depend on the processing

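Cxcl1, Cxcl2 and Cxcl5 stayed lower at high calcium in all 29 other settings, from -0.34 to -0.15, -0.43 to -0.20 and -0.35 to -0.12, and the adjusted p was never below 0.34. An unadjusted p under 0.05 arose in 2, 6 and 2 of them. These 29 settings are not independent, and 17 of them leave out 1 rat each. Changing the probe filter or using the robust eBayes fit leaves a member's difference as it was, so its sign could not turn there. The differences of the interferon-induced genes lie near 0 and turned sign: Cxcl9 was 0.015 without background correction, 0.020 with the scanner software's processed signals, 0.071 with median centring, 0.065 with Cy5 alone and 0.056 with the series matrix, Cxcl11 was 0.066 with median centring, and Cxcl10 was -0.066 without rats 3 and 16 (Cxcl9 -0.072, Cxcl11 -0.069). Leaving out each rat in turn gave -0.34 to -0.15 for Cxcl1, -0.43 to -0.20 for Cxcl2, -0.32 to -0.14 for Cxcl5, -0.051 to 0.069 for Cxcl9, -0.056 to 0.12 for Cxcl10 and -0.068 to 0.083 for Cxcl11. It gave 0 to 193 probes past an adjusted p of 0.05 (193 without high calcium rat 3, 38 without low calcium rat 16), 1589 to 3084 at an unadjusted p under 0.05, 0 to 1 past in the lists of other ligands and of processing genes, and an r of 0.46 to 0.76 for Cxcl1 and Cxcl5. Without rats 3 and 16 together, chosen after seeing the data, 328 probes passed, with 1 other ligand, 2 genes of the NF-kB side and 1 processing gene. With median centring 780 probes were at an unadjusted p under 0.05, against 2382. The receptor median was -0.46 with processed signals, against -0.063, over 3 genes. The causes were not tested. Averaging the probes of a gene changes nothing for the members, which have 1 each. With median centring 8 of the 9 pairs between the sets newly had an unadjusted p under 0.05, with r from 0.61 to 0.84. The r of Cxcl1 and Cxcl10 was not past an unadjusted p of 0.05 without background correction (0.46), with processed signals (0.45), with the series matrix (0.43), with slide means removed (0.40), or without high calcium rat 9 or 18. No paired analysis was possible because the diets share no replicate number.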
